A study of Caenorhabditis elegans with 2 samples.

Results

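Each of the 6 maternal CCCH zinc finger genes oma-1, oma-2, mex-1, mex-5, mex-6 and pos-1 had a peak summit in the authors' relaxed list. This list holds RNA polymerase II peaks and background from young adult worms, pooled over both replicates. A summit was listed there for 56.4% of all protein-coding genes. In the authors' stricter, thresholded list only mex-5 and pos-1 had a peak, beside 5.20% of all protein-coding genes. In 5 of the 6 genes the pooled signal at the gene end was higher than at the start. This was also the order in 59.0% of all protein-coding genes with a summit at each. In mex-5 and mex-1 that end summit lay inside a neighbouring gene, and in mex-1 the values were close. The 6 genes were taken by name from the 19973 nuclear protein-coding genes annotated on WBcel235. Every peak summit in a gene's body or within 1000 bp of either end was counted for it. The measurement was chromatin immunoprecipitation and sequencing of AMA-1, which is the largest RNA polymerase II subunit, in whole Caenorhabditis elegans. The worms were mixed-sex young adults of strain YL503, whose genotype is unc-119(ed3) III with vrIs110. This insertion expresses AMA-1 fused to GFP and FLAG from the promoter of the germline gene pie-1, with the ama-1 3' UTR and unc-119(+). The antibody target is given as ama-1, and the single group has 2 biological replicates, so the data hold no comparison between conditions. In whole worms, more cells with polymerase on a gene and more polymerase per cell cannot be told apart.

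CCCH zinc fingers are short folds in which 3 cysteines and 1 histidine hold a zinc ion, and in this family they bind single-stranded RNA, often at uridine-rich sites in 3' UTRs. The mRNAs of these genes are made in the germline and loaded into oocytes, where many stay untranslated until a set stage. OMA-1 and OMA-2 act redundantly in oocyte maturation, MEX-5 and MEX-6 act redundantly in the polarity of the early embryo, and MEX-1 and POS-1 act in the fates of its posterior cells. Translation of the annotated coding sequence found a pair of CCCH stretches in every member, from 264 residues (pos-1) to 494 residues (mex-1) of protein.

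The last 30 bases of each gene are shown because every member had a summit within 500 bp of its end in each of the 3 relaxed lists, though the highest pooled summit lay there only in oma-1, mex-5 and pos-1. Coordinates are ce11, bases are from the RefSeq sequence of WBcel235 on the plus strand, and capitals mark the poly(A) signal hexamer AATAAA, searched on the gene's own strand only.
oma-1, chrIV:8890970-8890999: attgcaggatgtagtaaatttttttgatcg
oma-2, chrV:8031185-8031214: actaacaatcAATAAActttatcgaatgtc
mex-1, chrII:11972301-11972330: aagaacaaatatgaagagatttgaattttt
mex-5, chrIV:13356075-13356104: tcaaactccAATAAAtggtgcaaagattat
mex-6, chrII:9526330-9526359: gattgtgcaaactccAATAAAttgtgcaaa
pos-1, chrV:8415225-8415254: actcataaaatgaaatttctcgtaatcagc
The hexamer was present in 3 of the 6 ends, and in 45.5% of the 19973 protein-coding gene ends of the same length. It ended 14 bases before the annotated end in oma-2, 15 in mex-5 and 9 in mex-6. Around the hexamer the ends of mex-5 and mex-6 read nearly alike. The absence of these letters in oma-1, mex-1 and pos-1 says only that they are not in this window.

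Sequence shared between paralogues matters because reads that lie wholly within it cannot be placed on 1 gene. The longest run shared by oma-1 and oma-2 was 14 bases, and no stretch of 30 bases was common to both. In mex-5 and mex-6 the longest run was 36 bases, and 7 stretches of 30 bases were common to both. Its first 30 bases are shown with the part that encodes the end of the first CCCH stretch in capitals.
mex-5, chrIV:13354696-13354725: TGCAAGTTTGCTCATgggctcaaagagctc
mex-6, chrII:9525205-9525234: TGCAAGTTTGCTCATgggctcaaagagctc
This run began 973 bp after the start of mex-5 and 1031 bp after the start of mex-6, away from the ends of both genes. In mex-5 it lay inside the internal pooled peak, whose summit was 1033 bp after the start.

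Of 6 members, 6 had a summit in the relaxed pooled list, the authors' list of peaks and background from both replicates together. The same held for 56.4% of all protein-coding genes. In replicate 1 and in replicate 2 the count was again 6 of 6, against 61.8% and 65.3% of genes. All 3 lists held a summit for 6 of 6 members and for 45.2% of genes. The members' windows held 32 pooled summits, 28 in replicate 1 and 23 in replicate 2, or 1.27, 1.11 and 0.912 per kb. Over the windows of all protein-coding genes the density was 0.367, 0.361 and 0.323 per kb. The median member held 5 pooled summits and the median protein-coding gene 1.

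**Figure D1:**
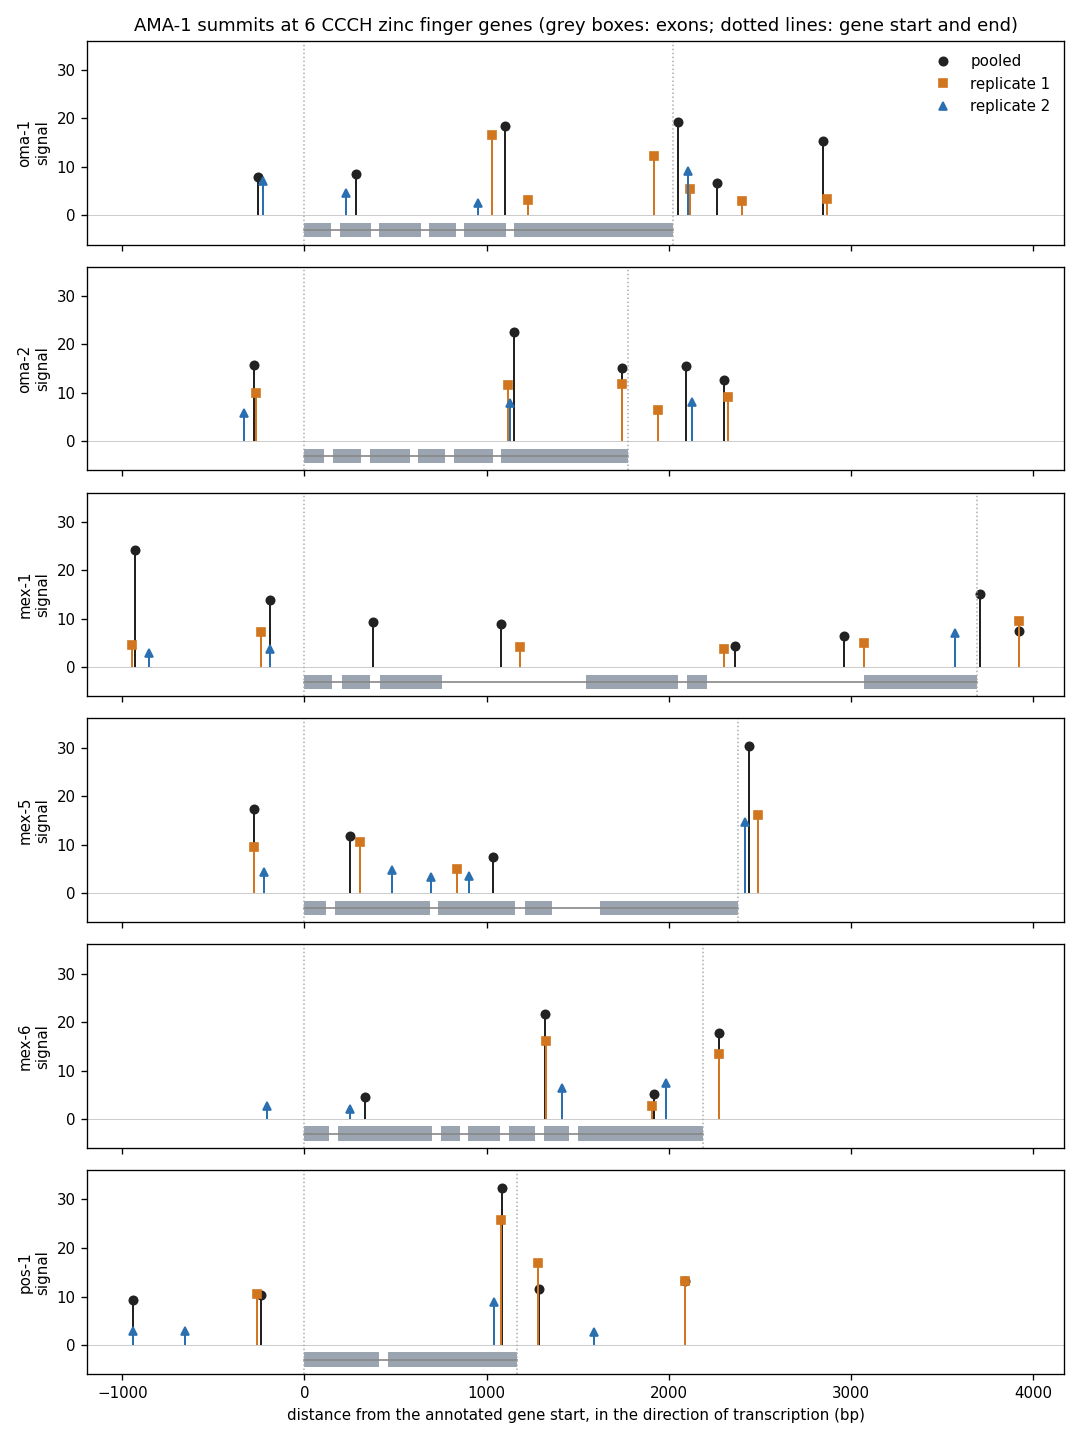
Signal of every summit (y axis, the authors' signal for the peak) against distance from the annotated gene start in bp (x axis), for 6 genes and 3 lists, with exons as grey boxes. The highest points of mex-5 and pos-1 sit at the gene end, 30.2 and 32.3 in the pooled list, and signals are to be compared only within a list.

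The thresholded list, which the authors made from the relaxed lists by the irreproducible discovery rate, held peaks for mex-5 and pos-1. These 2 of 6 members stand beside 5.20% of all protein-coding genes. The list was made up of the 732 highest of the 30000 pooled peaks, down to a signal of 27.5. Among the 732 highest peaks of replicate 1 alone only pos-1 had a summit (5.41% of genes), and among those of replicate 2 alone only mex-5 (4.87% of genes). By gene end, within 500 bp, 2.96% of genes had a thresholded summit, and both members' peaks lay there.

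POS-1, which binds maternal mRNAs such as glp-1 and neg-1 in posterior cells, is encoded by the shortest gene among the members. The gene pos-1 (WBGene00004078) spans chrV:8414086-8415254, on the plus strand, with 2 exons over 1169 bp. Its highest summit, at position 8415170, had a signal of 32.3 in the pooled list, where it ranked 484 of 30000. The summits matched to it within 152 bp had 25.8 in replicate 1 (rank 356) and 8.94 in replicate 2 (rank 1695 of 27106). The pooled summit lay in the 3' UTR, 84 bp before the annotated end, and in the replicates it lay 86 and 125 bp before the end. A further pooled summit 119 bp past the end had 11.6, with 16.95 in replicate 1 and no match in replicate 2. So at this gene the end was high in both replicates, and it stood higher in the ranks of replicate 1. The next gene, lmd-3, runs in the opposite direction and ends 393 bp further on. A pooled summit 920 bp past pos-1, inside lmd-3, had 13.2, and a summit 240 bp before the start had 10.4, with 10.4 in replicate 1 and none in replicate 2.

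MEX-5, which spreads through the anterior of the zygote and there limits posterior factors, is encoded by mex-5 (WBGene00003230) at chrIV:13353723-13356104. The gene has 5 exons over 2382 bp. Its highest summit, at position 13356162, had 30.2 in the pooled list (rank 577), 16.1 in replicate 1 (rank 1348) and 14.7 in replicate 2 (rank 399). It lay 58 bp past the end in the pooled list, 110 bp past it in replicate 1 and 40 bp past it in replicate 2. All 3 lists thus placed the highest summit of mex-5 just past its end. The gene W02A2.8 runs in the opposite direction and ends 8 bp from mex-5, so that the pooled summit lay inside it, 49 bp from its end. The peak therefore cannot be assigned to mex-5 alone. In the body, pooled summits had 11.9 in exon 2 and 7.48 in exon 3, and a summit 278 bp before the start had 17.3 (9.51 in replicate 1 and 4.30 in replicate 2). That upstream summit also lay 252 bp from the start of rec-8, a meiotic cohesin gene of the opposite strand.

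MEX-6, the close paralogue of MEX-5, is encoded by mex-6 (WBGene00003231) at chrII:9524174-9526359, with 7 exons over 2186 bp. Its highest pooled summit lay inside the gene, in coding exon 6, 1321 bp after the start. It had 21.7 in the pooled list (rank 1312), 16.1 in replicate 1 (rank 1338) and 6.42 in replicate 2 (rank 4137). Past the end, by 93 bp, a pooled summit had 17.8 and replicate 1 had 13.4 at the same base. That summit had no match in replicate 2. The highest of mex-6 in replicate 2 was a summit of 7.36 in the 3' UTR, 201 bp before the end. Matched to it, the pooled list held 5.18 (rank 21539), 263 bp before the end, and replicate 1 held 2.70 (rank 25536). The start was weak: the pooled list held only a summit of 4.57 in exon 2, at rank 24535, and replicate 1 held none within 500 bp. No other protein-coding gene held any of these summits, and the nearest annotated gene downstream was a pseudogene.

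OMA-1 and OMA-2 are needed together for oocytes to mature, and OMA-1 must be degraded after the zygote's division begins. The gene oma-1 (WBGene00003864) spans chrIV:8888976-8890999 with 6 exons over 2024 bp, and oma-2 (WBGene00003865) spans chrV:8029439-8031214 with 6 exons over 1776 bp. In oma-1 the highest pooled summit lay 30 bp past the end with 19.3 (rank 1785), and matched summits had 12.3 in replicate 1, there 105 bp before the end, and 9.09 in replicate 2. A second one in coding exon 5, 1099 bp after the start, had 18.5, with 16.6 in replicate 1 and 2.48 in replicate 2. The internal summit of oma-1 was thus the highest of this gene in replicate 1 and the lowest of its 4 in replicate 2.

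In oma-2 the order of the sites was different in the pooled list. Its highest summit lay in coding exon 6, 1152 bp after the start, with 22.4 (rank 1216), 11.7 in replicate 1 and 7.94 in replicate 2. In the 3' UTR, 29 bp before the end, a summit had 15.1, with 11.8 in replicate 1 and no match in replicate 2. Another, 320 bp past the end, had 15.5, with 8.01 in replicate 2 and no match in replicate 1. The last of these lay inside vars-1, which encodes valyl-tRNA synthetase and starts 196 bp after oma-2 on the same strand, 123 bp from that start. In each replicate the internal summit of oma-2 was close to its highest end summit, with 11.7 beside 11.8 in replicate 1 and 7.94 beside 8.01 in replicate 2. Before the start, by 279 bp, a summit had 15.8, with 10.05 in replicate 1 and 5.87 in replicate 2. For oma-1 the corresponding summit, 252 bp before the start, had 7.83, with 6.99 in replicate 2 and none in replicate 1. It lay 157 bp from the end of the upstream gene C09G9.5.

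MEX-1, which acts in the segregation of germline factors to posterior cells, is encoded by the longest gene among the members. The gene mex-1 (WBGene00003228) spans chrII:11968637-11972330 over 3694 bp. Its highest pooled summit, with 24.1 (rank 1022), lay 929 bp before its start and 164 bp from the start of W03C9.5, which runs the other way. The matched summit of replicate 1 had 4.65 (rank 15409). Replicate 2 held 2 summits within reach of it, 1 of 10.1 (rank 1241) that lay 1055 bp before the start, just outside the window of mex-1, and 1 of 2.92 (rank 18327) inside it. The site was thus high in the pooled list and in replicate 2, where the higher summit is not counted for mex-1, and low in replicate 1. Without this summit the highest was 15.2, 18 bp past the end, where acbp-6 of the opposite strand overlaps mex-1 by 18 bp. In replicate 2 the matched summit had 7.11 in the 3' UTR, 118 bp before the end. In replicate 1 the end was marked 233 bp past it by 9.44, also inside acbp-6. The summit 191 bp before the start had 13.8, with 7.18 in replicate 1 and 3.82 in replicate 2. In the introns of mex-1 the pooled summits ranged from 4.35 to 9.42, and those with a match in replicate 1 had 3.796 to 4.94 there, with no match in replicate 2.

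The ends of all 6 members carried a summit within 500 bp in the pooled list and in each replicate, against 36.4% of protein-coding genes in the pooled list, with 37.1% for replicate 1 and 35.1% for replicate 2. At the starts the count was 6 of 6 in the pooled list (32.0% of genes), 4 in replicate 1 (32.1%) and 5 in replicate 2 (30.9%). Within 250 bp, a distance chosen after the data were seen, the pooled count at the starts was 2 and at the ends 6. The share of all protein-coding genes was not computed for this distance, so these counts have nothing to stand beside. In oma-1 and mex-5 the nearest pooled summit lay 252 bp from the start, only just outside it. Within 500 bp, the pooled summits upstream of the starts lay from 191 to 279 bp before them in 5 members, all but mex-6. For mex-6 replicate 2 held a summit 205 bp before the start, with 2.65 at rank 20598.

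In the pooled list the highest end signal exceeded the highest start signal in 5 of 6 members, beside 59.0% of the 4223 genes with a summit at each. The exception was oma-2, with 15.8 at the start and 15.5 at the end. The widest gap was in pos-1, with 10.4 at the start and 32.3 at the end, followed by mex-6 with 4.57 and 17.8, mex-5 with 17.3 and 30.2, and oma-1 with 8.56 and 19.3. In mex-1 the values were close, 13.8 and 15.2. In replicate 1 the end was higher in 4 of the 4 members with both (58.7% of genes), and in replicate 2 in 5 of 5 (56.5% of genes). Neither replicate had an exception among its members with both, but only oma-2, mex-1 and mex-5 had both in each replicate. The end summit of oma-2 lay 33 bp before the end in replicate 1 and 356 bp past it in replicate 2. That of mex-1 lay 233 bp past the end in replicate 1 and 118 bp before it in replicate 2. For oma-2 and mex-1 the replicates thus did not give the same end site. For oma-2 the values were 10.05 and 11.8 in replicate 1 and 5.87 and 8.01 in replicate 2. Several end summits lay inside a neighbouring gene and cannot be assigned to the member alone. The mex-5 one lay in W02A2.8 in every list, and the mex-1 one in acbp-6 in the pooled list and replicate 1. That of oma-2 lay in vars-1 in the pooled list and in replicate 2, where it was 159 bp from the vars-1 start. Since the pooled list comes from the same reads as the replicates, it is no further evidence beside them.

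**Figure D2:**
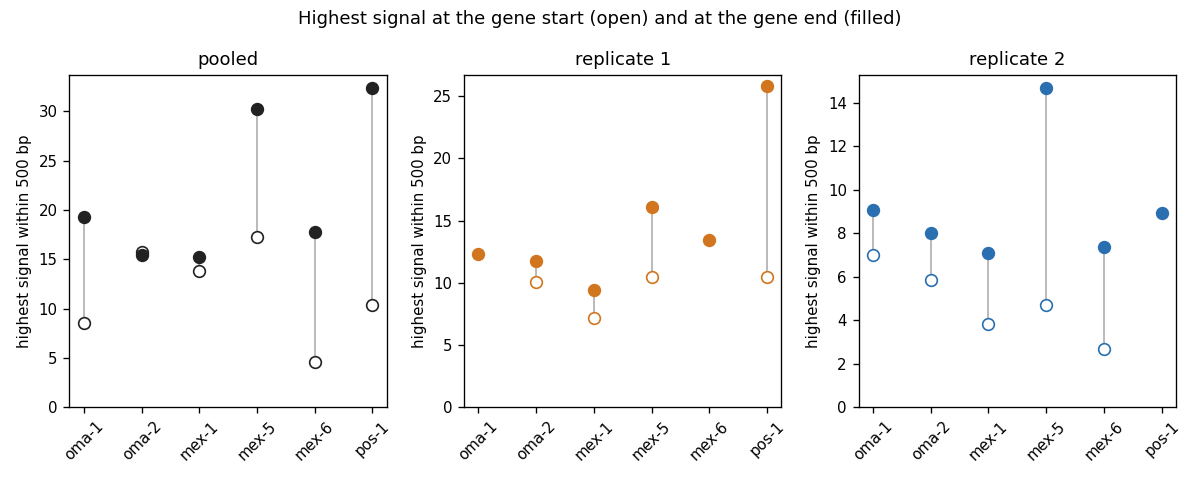
Highest signal within 500 bp of the gene start (open circles) and of the gene end (filled circles) for 6 genes (x axis) in each list, with its own y axis from 0. Filled circles sit above open ones except for oma-2 in the pooled list (15.8 at the start, 15.5 at the end), and a missing open circle means that no summit was listed there.

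The highest summit of any kind was nearer the end than the start in 5 of 6 members, beside 55.6% of genes with a pooled summit. In replicate 1 and replicate 2 it was nearer the end in 6 of 6 members, beside 54.4% and 53.7%. The summit that differed in the pooled list was the one of mex-1 beside W03C9.5. Nearer the end does not mean at the end. In replicate 1 the highest summit of oma-1 was near mid-gene, 1029 bp after the start and 994 bp before the end. That of mex-6 was also internal, at 1325 and 860 bp.

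Internal summits of oma-1, oma-2 and mex-6 lay downstream of the CCCH-encoding stretches. The second stretch ended 782 bp after the start of oma-1, 725 bp after that of oma-2 and 1229 bp after that of mex-6, and the pooled summits lay at 1099, 1152 and 1321 bp. In mex-5 the internal pooled summit, at 1033 bp, lay between its stretches, which ended at 987 and began at 1057 bp. Neither replicate placed it there. Their internal summits lay at 836 bp in replicate 1 and at 697 and 903 bp in replicate 2, before the first stretch began at 925 bp. In mex-1 the internal pooled summits, at 1082, 2362 and 2963 bp, lay past the second stretch, which ended at 740 bp. In pos-1 no internal summit was listed in any of the 3 lists beyond 500 bp from both ends, but at 1169 bp this gene has little sequence that far from both. The summits are near the middle of peaks that are mostly 304 bp wide in the pooled list and 344 bp wide in replicate 2, so distances of this size are not resolved to single bases.

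Ordered by the highest pooled signal the members were pos-1 (32.3), mex-5 (30.2), mex-1 (24.1), oma-2 (22.4), mex-6 (21.7) and oma-1 (19.3). In replicate 1 the order was pos-1 (25.8), oma-1 (16.6), mex-6 (16.1), mex-5 (16.1), oma-2 (11.8) and mex-1 (9.44). In replicate 2 it was mex-5 (14.7), oma-1 (9.09), pos-1 (8.94), oma-2 (8.01), mex-6 (7.36) and mex-1 (7.11). Of the 15 pairs of members, 10 had the same order in both replicates and 5 of these also in the pooled list. The neighbours mex-5 and pos-1 changed places between the replicates, as did mex-6 and oma-2, so neither pair can be ordered. In both replicates mex-1 was the lowest, but the replicate 2 summit of 10.1 just outside its window would have placed it above all members but mex-5 in that list. Its place in the pooled list came from the summit beside W03C9.5.

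Set against all protein-coding genes, each member's highest pooled signal was in the upper part. A lower value was found for 96.6% of genes in the case of pos-1, 95.9% for mex-5, 92.9% for mex-1, 91.6% for oma-2, 91.0% for mex-6 and 88.3% for oma-1. In replicate 1 these shares ranged from 75.8% (mex-1) to 97.4% (pos-1), and in replicate 2 from 82.3% (mex-1) to 97.4% (mex-5). The median over the members was 23.3 in the pooled list, with 16.1 for replicate 1 and 8.48 for replicate 2. Over all protein-coding genes, with those without a summit at 0, it was 5.35, 4.26 and 3.31.

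**Figure D3:**
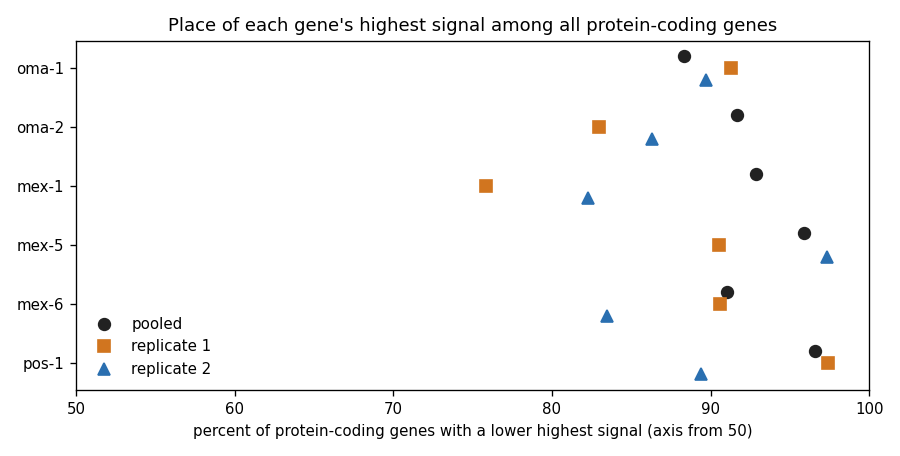
Percent of protein-coding genes with a lower highest signal (x axis, drawn from 50 to 100) for each of 6 genes (y axis) in 3 lists. The points lie between 75.8 and 97.4, with mex-1 lowest in both replicates by the summits inside its window.

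Of the 32 pooled summits, 24 had a match within 152 bp in replicate 1 and 18 in replicate 2. Over all nuclear pooled summits the shares were 57.8% and 41.1%. A match in both was found for 11, against 19.6% of all, and 1 had none, the summit of 9.42 in an intron of mex-1. Those matched in both included the highest summits of pos-1, mex-5, mex-6, oma-1 and oma-2, and that of mex-1 beside W03C9.5.

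The genes most like pos-1 in their highest signals over the 2 replicates, by distance on the log2 scale among 9881 genes with a summit in both, were pigk-1, rps-5 and air-1. The first 2 of these gave 26.0 in replicate 1 and 9.11 in replicate 2, and air-1 gave 25.6 and 8.74. Both pigk-1 and rps-5 lie on chromosome IV and had the same values in every list, so they may not be separate cases. In the pooled list, which was not used for the distance, they had 24.8 and air-1 had 24.6, below the 32.3 of pos-1. The distances were 0.029 for pigk-1 and rps-5 and 0.034 for air-1.

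Of 7 other CCCH genes listed, 5 had a pooled summit (56.4% of all protein-coding genes) and 0 a thresholded peak (5.20% of all), with a median highest pooled signal of 8.88. The highest was pie-1, a germline CCCH protein that represses transcription, with 26.5 at 174 bp before its start (22.2 in replicate 1 and 12.97 in replicate 2). The inserted construct also carries the pie-1 promoter, and reads from its copy and from the gene's own cannot be told apart. ccch-1 reached 22.6 and moe-3, a relative of the OMA proteins, 22.5. cpsf-4, a subunit of the mRNA cleavage complex, reached 8.88 and ccch-5 reached 5.37, while ccch-2 and dct-13 had no summit in any of the 3 lists.

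Regulators of the members had a pooled summit in 15 of 15 (56.4% of all genes) and a thresholded peak in 3 (5.20% of all genes). These were gld-1, a KH-domain repressor of maternal mRNAs (39.6, 68 bp past its end), zif-1, an adaptor that marks CCCH proteins for degradation (34.7, 18 bp past its end), and mbk-2, a kinase that phosphorylates OMA-1 and MEX-5 (32.1, 436 bp before its end). Their median was 17.01, with par-6 lowest at 10.4 and the polo kinase gene plk-1 at 23.0.

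Partner RNA-binding proteins had a pooled summit in 16 of 16 and a thresholded peak in 5, against the same 56.4% and 5.20% of all genes. The highest was cgh-1, an RNA helicase, with 64.2, followed by the Vasa-like helicase gene glh-1 with 45.7 and spn-4, which acts with POS-1 in the embryo, with 42.7. The translational repressor gene ifet-1 reached 38.4 and puf-11 reached 30.7, and for both the highest summit lay before the start. The KH-domain gene mex-3 reached 23.3 without a thresholded peak, and the list median was 19.5.

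mRNA targets of the members had a pooled summit in 12 of 12 (56.4% of all genes) and a thresholded peak in 5 (5.20% of all genes), with a median of 17.2. They were tbb-2, a tubulin (59.1), rnp-1 (44.0), neg-1, which is repressed by POS-1 (36.4), zif-1, and skn-1, a transcription factor (30.1). The Notch receptor gene glp-1 reached 13.7, mei-1 10.03, mom-2 8.19, apx-1 7.84, nos-2 7.19 and pal-1 6.33, all without a thresholded peak. Targets of the same proteins thus ranged from 6.33 to 59.1.

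Lists of cell type markers were set beside the members, in worms whose tagged AMA-1 is driven by a germline promoter. The germline expression of the construct and the cell type of the markers cannot be told apart in their order. Germline and oocyte markers had a thresholded peak at 7 of 8 (5.20% of all genes), with a median highest pooled signal of 43.1, and htp-3 had none. The muscle, neuron, intestine and epidermis lists, of 6 genes each, had 0 thresholded peaks, a count that the 5.20% of all genes leaves unremarkable for lists of this size. Their medians were 0 for muscle, 8.81 for neuron, 7.49 for intestine and 3.73 for epidermis. A pooled summit was listed for 1 of 6 muscle, 6 of 6 neuron, 5 of 6 intestine and 3 of 6 epidermis markers. For the germline list it was 8 of 8, and for all protein-coding genes 56.4%. Among single somatic markers, snb-1 of neurons reached 25.003, above 4 of the 6 members, and unc-22 of muscle reached 19.27, just under oma-1. The members' median of 23.3 lay between the germline list and these. Some genes with a thresholded peak are in more than 1 list, so the lists are not separate comparisons. The germline markers share gld-1 with the regulators and glh-1 with the partners, and zif-1 is both a regulator and a target.

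**Figure D4:**
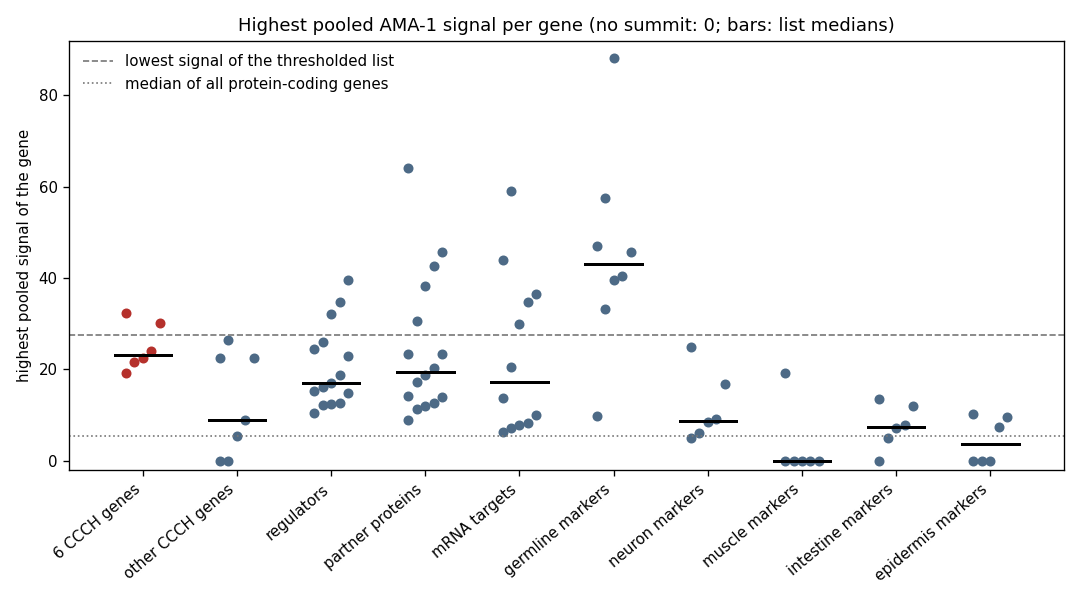
Highest pooled signal of each gene (y axis) for the 6 CCCH genes and 9 other lists (x axis), with genes without a summit at 0 and bars at list medians. The 6 genes sit between 19.3 and 32.3, and 2 of them lie above the lowest thresholded signal of 27.5.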

How the data were processed

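Peak lists on ce11 were used. Per the file lists the authors deposited beside the samples, relaxed lists were made for replicate 1, replicate 2 and the pooled reads, each against a control, and the thresholded list was made from these. Neither the peak caller nor the aligner nor the read depth is given in the sources used here. The deposited signal of each peak is the authors' value on an unstated scale and was compared only within a list. The deposited −log10 of a q-value was not used. Lists on ce10 were not analysed here.

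Genes came from Ensembl release 115 (WBcel235), whose chromosomes contained every peak. Mitochondrial genes were left out. A summit counted for every gene whose body or 1000 bp flanks held it, and ranks run from the highest signal. "At the start" and "at the end" mean within 500 bp, whichever is nearer. Summits of different lists were matched within 152 bp, which is the commonest pooled peak width of 304 bp divided by 2, taking the highest whether or not it lay in the gene's window. Neighbouring genes share summits. No test was run, since there is 1 group, and no interval is given, since no read counts were used.

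The assignment was tested on 200 simulated summits, of which 200 were recovered. The members and lists were chosen with earlier results of these data known. Every member is named. Of other lists those with a thresholded peak and the highest are named, with some further genes chosen after their values were seen. Other CCCH genes were listed by name, because no protein table was used. Alternatives were narrower windows, interval overlap, nearest gene only, a stricter threshold and each replicate alone. Python 3.11.15, pandas 2.3.3 and numpy 2.4.6 were used.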

Additional observations from a re-analysis of the deposited data

How the results depend on the processing

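The count of members with a summit in the relaxed list was 6 under every alternative run (flanks of 500 bp, gene body only, interval overlap, nearest gene only and each replicate alone). The count with a thresholded peak moved from 2 to 1 with the gene body only and with the nearest gene only, where the mex-5 peak falls to W02A2.8, and to 0 among the 366 highest peaks. It was 1 with either replicate alone, range 1 to 1. The count whose highest summit was nearer the end than the start went from 5 to 6 with flanks of 500 bp and with each replicate alone, and to 4 with the gene body only and with the nearest gene only. Chosen after the data were seen, a window of 250 bp at the start lowered the count from 6 to 2, and at the end it stayed 6. For this window no share of all genes was computed, and oma-1 and mex-5 fell just outside it at the start, at 252 bp. Within the pooled list 6 of 24 alternative values of a member's highest signal differed from the value reported, 5 of them by over 1.5 times. For mex-1 it fell from 24.1 to 15.2 with flanks of 500 bp, to 13.8 with the nearest gene only and to 9.42 with the gene body only. For mex-5 it fell from 30.2 to 11.9 with the gene body only and with the nearest gene only, and for oma-1 from 19.3 to 18.5 with the gene body only. The share of genes with a lower highest pooled signal also changed. With the gene body only it fell from 95.9% to 85.9% for mex-5 and from 92.9% to 79.8% for mex-1. For the other members it rose, to 98.8% for pos-1, 96.8% for oma-2, 96.5% for mex-6 and 94.7% for oma-1. Signals of the replicate lists were not set against pooled ones. No paired analysis was possible because the samples form 1 group and no test was run. Depth is unknown, so a missing summit says only that none was listed.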
